A study of Mus musculus with 24 samples.

Results

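The ATF4 stress response and serine metabolism genes examined here are 41 genes chosen by name: the kinases and brakes of the eIF2 pathway, the transcription factor Atf4 with its partners, its stress effectors, and the enzymes and transporters that make or import serine, glycine, asparagine, cysteine and their relatives. The choice was made with earlier results of these data known. Probes named by RefSeq transcripts measured 40 of the 41 genes among 22911 named genes of the array, and Pycr1, a proline synthesis enzyme, was not measured. Total RNA of cultured mouse cells was measured on 24 Agilent arrays of 1 colour. In melanoma, the groups were the parental line B16-M (3 arrays), the dormant line B16-D (4 arrays) and the second-generation dormant lines B16-D-733 (4 arrays), B16-D-735 (3 arrays) and B16-D-739 (3 arrays). In myeloid leukemia they were M0-p20 (4 arrays) and J365-p20 (3 arrays). The study's methods describe parental cells and cells recovered after long dormancy from syngeneic mice given immunotherapy, all then expanded in culture, with the second melanoma generation taken from the brain. Reading M0-p20 and J365-p20 as the parental and the dormant leukemia line rests on the single leukemia comparison of the study, since the titles do not say it. The titles of B16-D-733, B16-D-735 and B16-D-739 likewise do not say that these lines are the second generation or come from the brain. The labels name each line once and give no separate cultures or animals, so p-values measure the spread between arrays, which may be technical, and no line stands for more than itself. The title of B16-D replicate 0 reads 16D and was taken as B16-D. B16-D-733 replicates 1 and 3 have the same name, number and date in their titles and lay on the same slide. The leading codes of the 2 titles differ, so these replicates may be repeats of 1 sample or separate samples. Their correlation over genes was 0.9978, the highest of the 6 pairs of that line (0.9772 to 0.9957 for the other 5), and they were counted as 2 arrays.

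When amino acids run short or unfolded proteins accumulate, kinases such as PERK (Eif2ak3) and GCN2 (Eif2ak4) phosphorylate the initiation factor eIF2. General protein synthesis then falls while the ATF4 messenger is translated more, so Atf4 activity is set largely by translation and its RNA level alone does not report it. ATF4 binds composite sites known as C/EBP-ATF response elements and raises genes of amino acid synthesis, amino acid import and glutathione metabolism, together with Ddit3 (CHOP), Trib3 and Chac1. In tumours this programme feeds serine into the folate cycle and cysteine into glutathione.

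Promoters of members described below are shown because they carry the letters of this response element. Its core TGATGNAA was searched on both strands in RefSeq promoters (assembly GRCm38.p6) from 250 bases before to 50 bases after each gene start. It was found for 10 of the 35 members with a promoter in the table (28.6%) and for 1219 of 27025 genes overall (4.51%). The stretches below run 5′ to 3′ on the strand of the gene and end before the gene start. Capitals mark the core, read as TGATGNAA or as its reverse complement TTNCATCA, and the choice of these stretches was made after the values were seen.
Vldlr, chr19:27216794-27216853, plus strand: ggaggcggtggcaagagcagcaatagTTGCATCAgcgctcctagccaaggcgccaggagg
Got1, chr19:43524674-43524733, minus strand: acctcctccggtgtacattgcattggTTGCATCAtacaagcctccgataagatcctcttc
Chac1, chr2:119351023-119351082, plus strand: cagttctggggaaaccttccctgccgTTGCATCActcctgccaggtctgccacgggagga
Nupr1, chr7:126625547-126625606, minus strand: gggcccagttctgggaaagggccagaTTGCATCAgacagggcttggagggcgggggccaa
Slc7a11, chr3:50443627-50443705, minus strand: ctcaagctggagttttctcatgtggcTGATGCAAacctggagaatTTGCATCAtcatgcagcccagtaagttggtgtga
Asns, chr6:7693210-7693258, minus strand: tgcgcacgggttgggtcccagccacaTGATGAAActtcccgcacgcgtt
Slc7a11 held the core on each strand, starting 66 and 47 bases before the gene start. Pck2 and Pycr1 held it 103 bases before the start, Slc1a4 4 bases before it and Trib3 14 bases after it. A match is a description of letters and not of a bound site.

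Signals are given as levels, the log2 signal minus the 75th percentile of the array, and differences of levels are log2 changes. Between 46.0% and 55.8% of spots were well above background on 23 arrays, against 90.3% on B16-D replicate 2, which was left out. The melanoma arrays showed all 7 melanocyte markers, and of 8 myeloid markers Itgam, Kit and Il3ra were above background on all 16 used, while Ptprc, the leukocyte antigen CD45, and Cd33 were on none. The leukemia arrays showed 6 of the 8 myeloid markers and lacked Kit and Cd33, while Tyrp1, Dct and Mlana were not above background there and Tyr, Sox10 and Mitf were above it on every array. Against B16-M, the fibroblast marker Dcn was higher in B16-D-735 and Col1a2 lower in B16-D-739, the brain marker Mbp and the receptor Kit were higher in B16-D-733, and Il3ra was higher in B16-D, B16-D-735 and B16-D-739. The summed level of the 4 fibroblast markers was 0.11 to 0.59 in B16-D-735 and -1.89 to -0.43 in the other melanoma lines, and that of the 5 brain markers was 2.89 to 3.11 in B16-D-733 and 1.26 to 2.56 in the others. Of the brain markers in B16-D-733, Gfap went the other way (-4.8 to -3.98 against -3.75 to -3.58 in B16-M). Snap25 and Aqp4 overlapped with B16-M, and Rbfox3 was not above background in either line. Of the fibroblast markers in B16-D-735, Pdgfra went the other way, above background on 0 of 3 arrays against 3 of 3 in B16-M. Col1a1 and Col1a2, like Dcn, lay above B16-M there. The part of these markers in the results below was not tested.

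Detection of a few members differed between the models. Of the 40 measured members, 37 were above background on all 16 melanoma arrays used and 33 on all 7 leukemia arrays. Over 45616 genes, counting unnamed transcripts each as a gene, 17770 were above it on every melanoma array used and 19250 on every leukemia array. Chac1, which degrades glutathione, lay between 2.30 and 4.24 on the melanoma arrays and was not above background on any leukemia array. Aldh1l2, the mitochondrial enzyme that oxidizes formyl-tetrahydrofolate, behaved likewise, with levels from -1.94 to 1.13 in melanoma and no array above background in leukemia. Stc2, a secreted stress glycoprotein, was above background on none of the 23 arrays. Fewer cells with a transcript and less transcript per cell cannot be told apart in such bulk RNA.

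In the dormant leukemia line, the transsulfuration enzyme Cth was present while its RNA was below detection in the parental line, whereas Gdf15 and Psph were lower. These were the 3 of 36 tested members past an adjusted p of 0.05, 1 higher and 2 lower. Over all 22967 genes tested, counting unnamed transcripts of the array each as a gene, 0.488% were called higher and 0.579% lower. An unadjusted limma p under 0.05 was found for 10 of the 36 members and for 6.9% of all genes. The other 33 tested members did not pass, yet 30 of the 36 changes were above 0. Their median log2 change was 0.31 against -0.02 over all genes, of which 47.5% were above 0. Because the members were chosen with earlier results of these data known, these shares do not test the set.

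Cth, cystathionine gamma-lyase, forms cysteine in the last step of transsulfuration. Its level was -6.89, -6.78, -6.91 and -6.92 on the M0-p20 arrays, none above background, and -0.62, -1.55 and -1.52 on the J365-p20 arrays, all above it. The groups did not overlap, and the means were -6.87 ± 0.06 (SD, n = 4) and -1.23 ± 0.53 (SD, n = 3). Set against the lowest signal that counts as above background, Cth was at least 10.8-fold higher in J365-p20 (limma, adjusted p = 4.7e-05). Within the 3 slides the differences were 5.26, 6.29 and 5.36. Cth passed the filter of 3 arrays above background only through the arrays of J365-p20, the group where it was high, and removing any of them left it untested. With normexp background correction the log2 change was 2.09 in place of 5.65, which is less than the stated bound, so the size depends on how background is treated. In the melanoma lines Cth was present on all 16 arrays, from -0.91 to 0.89. The partner enzyme Cbs, which condenses serine with homocysteine, was at -4.67, -4.89, -4.67 and -4.35 in M0-p20 and at -4.21, -3.86 and -3.88 in J365-p20, apart without overlap but with an adjusted p of 0.356 by limma, and was above background on 1 of 4 and 3 of 3 arrays.

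Gdf15, a secreted cytokine of the TGF-beta superfamily induced by cell stress, changed in the other direction. It measured -1.25, -1.47, -1.27 and -1.31 in M0-p20 and -3.67, -3.29 and -4.36 in J365-p20. All arrays of J365-p20 were lower, and the log2 change was -2.45 (SE 0.26, limma adjusted p = 0.00401). It was -1.38 with normexp background correction.

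Serine synthesis split by enzyme. Psph, the phosphatase of the last step, was at 1.68, 1.40, 1.31 and 1.14 in M0-p20 and at 0.05, -0.36 and -0.53 in J365-p20. It fell by 1.66 (SE 0.21, limma adjusted p = 0.00981), again with no overlap. Phgdh, the dehydrogenase that commits 3-phosphoglycerate to serine, read 6.35, 6.76, 6.36 and 6.25 in M0-p20 and 6.74, 6.77 and 6.88 in J365-p20. Psat1, the transaminase between them, read 5.95, 5.80, 5.74 and 5.50 in M0-p20 and 6.16, 5.84 and 5.80 in J365-p20. The groups overlapped for both enzymes, with changes of 0.37 and 0.19 and limma adjusted p of 0.823 and 0.975. Psph lost its limma call without J365-p20 replicate 1 (adjusted p = 0.0741) or replicate 3 (adjusted p = 0.0601), and Gdf15 kept its call without each array in turn.

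The remaining roles leaned upward without passing the test. All 6 transcription factors and cofactors had changes above 0 (0.24 to 0.49), as had the 5 tested folate enzymes (0.17 to 0.54) and the 5 tested enzymes of asparagine, alanine, aspartate and proline synthesis with Pck2 (0.34 to 0.61). Among 7 transporters, 6 were above 0. Second probes of Mthfd1 (-0.18) and Slc3a2 (-0.32), above background on all 23 arrays, went the other way. So did that of Mthfd1l (-0.66), above background on 3 arrays, while the other second probes of tested members stayed above 0. With the mean of all probes, 28 of 36 changes were above 0. Asns, asparagine synthetase, was at 5.76, 6.03, 5.83 and 5.65 in M0-p20 and at 6.33, 6.21 and 6.17 in J365-p20, a change of 0.42 (SE 0.16, adjusted p = 0.617 with limma). Every J365-p20 array exceeded every M0-p20 array for Asns. Shmt2, the mitochondrial hydroxymethyltransferase that splits serine, was at 4.30, 4.43, 4.06 and 3.89 and then at 4.94, 4.56 and 4.63, with a change of 0.54 (SE 0.19, adjusted p = 0.574 with limma). Slc7a11, the cystine importer, was at -2.38, -2.36, -2.21 and -2.56 and then at -1.80, -1.44 and -1.98, a change of 0.64 (SE 0.19, adjusted p = 0.371 with limma). Counted over the tested members, 10 of 36 lay wholly above M0-p20 (Asns, Atf4, Cbs, Cth, Got1, Gpt2, Nupr1, Pck2, Shmt2 and Slc7a11) and 2 wholly below (Gdf15 and Psph). The shares over all tested genes were 5.01% above and 3.30% below. This is no test of the set, since its members were chosen with earlier results of these data known.

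Atf4 itself changed little in leukemia. Its level was 7.20, 7.21, 7.10 and 6.98 in M0-p20 and 7.45, 7.37 and 7.26 in J365-p20. The change of 0.24 (SE 0.15, adjusted p = 0.935 with limma) was small although the arrays did not overlap. Ddit3 read -1.41, 0.00, -0.42 and -0.47 in M0-p20 and -0.24, -0.10 and 0.06 in J365-p20. Trib3, the pseudokinase that restrains ATF4, read 4.07, 5.12, 4.99 and 4.78 and then 4.77, 5.24 and 5.33. Mthfd2, the mitochondrial methylene-tetrahydrofolate dehydrogenase, read 3.41, 2.74, 2.68 and 2.71 and then 3.38, 3.00 and 2.92. The groups overlapped for all 3 genes.

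**Figure D1:**
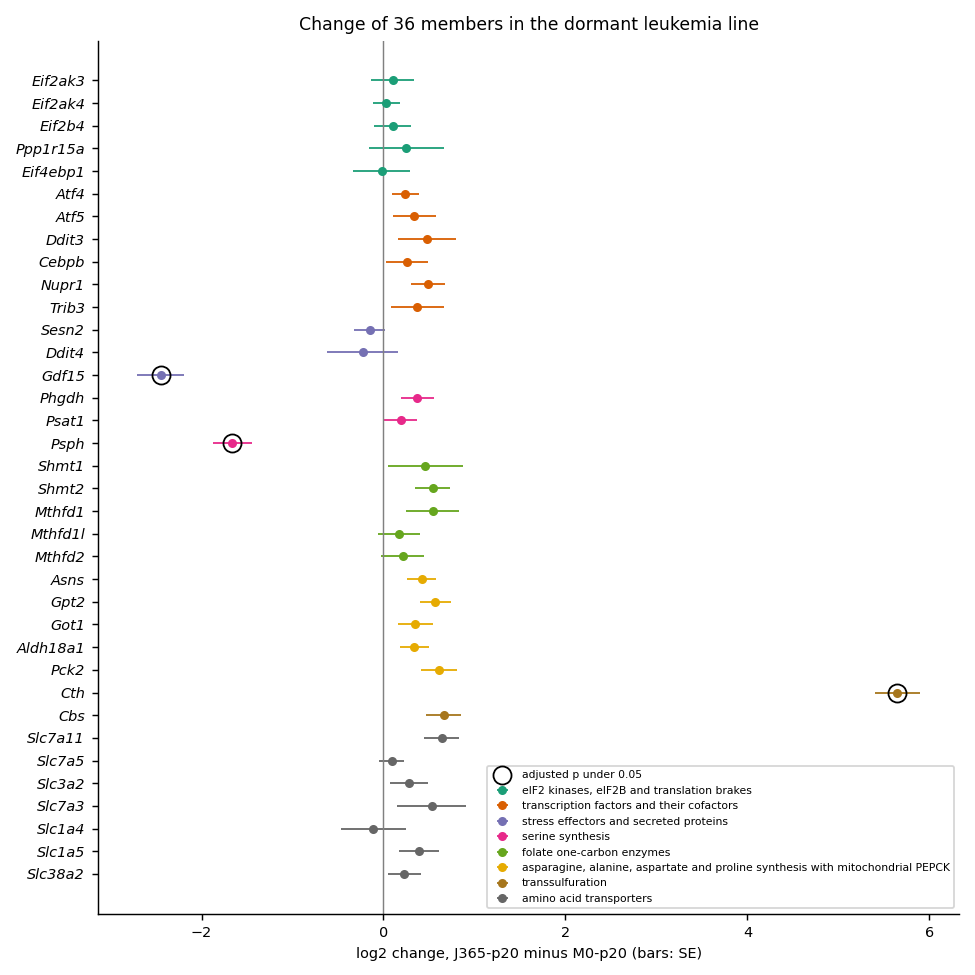
Log2 change (x axis, J365-p20 minus M0-p20, bars are SE) of the 36 tested members, coloured by role, with a ring around those past an adjusted p of 0.05. Cth at 5.65, Gdf15 at -2.45 and Psph at -1.66 stand away from the others, which lie between -0.23 and 0.66.

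In melanoma the arrays first divided in another way, which bears on each comparison that follows. The leading code of the titles gives each line 1 array of number 0. The members' median level was highest on that array in all 5 melanoma lines. It was 2.27 on number 0 of B16-M against 1.79 and 1.95, and 2.73 on number 0 of B16-D against 1.78 and 1.86. The 5 number 0 arrays lay on all 3 slides, and the median over all genes did not show the same order. Of 39 tested members, 21 were highest on the number 0 array in every one of the 5 lines, against 3.76% of all genes, and 1 member, Eif2ak3, was lowest there in every line, against 9.16% of all genes. The median excess of number 0 over the other arrays was 0.55 for the members and 0.02 for all genes.

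Slc7a11 showed the widest gap of these members. It measured 0.14, -0.83 and -1.28 in B16-M and 1.41, -2.05 and -1.46 in B16-D, the first value being number 0. In B16-D-733 it was 1.34, -0.85, -1.12 and -1.10. B16-D-735 gave 0.49, -1.69 and -1.23, and B16-D-739 gave 1.14, -0.57 and -0.92. The number 0 array was the highest in each line, and the lines overlapped throughout. The mean excess over the 5 lines was 2.11 for Slc7a11, 1.75 for Atf5, 1.53 for Trib3, 1.51 for Nupr1, 1.40 for Aldh1l2 and 0.42 for Atf4 itself. Eif2ak3, Shmt1 and Slc38a2 had the lowest mean differences, -0.28, -0.28 and -0.23. Of the members shown or named above for the response element core, 5 of 9 measured ones were highest on number 0 in every line, as were 16 of the 30 others.

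Some of the excess belonged to B16-D replicate 0, the array with the lowest share of spots above background (46.0%). There Ppp1r15a, the phosphatase subunit that reverses eIF2 phosphorylation, was at 3.56, against 1.40 to 1.83 on the other 15 melanoma arrays. In leukemia the number 0 arrays divided the members both ways. Both number 0 arrays were highest in their lines for 10 of 36 members, against 15.1% of all genes, and lowest for 8, among them Ddit3, Ddit4, Ppp1r15a and Trib3, against 19.4% of all genes. The titles of the other B16-D and B16-D-733 arrays carry a shared date that no other title has. Without number 0, every array of those lines is thus dated and none of B16-M is, so date and line cannot be told apart there. What sets the number 0 arrays apart was not tested.

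**Figure D2:**
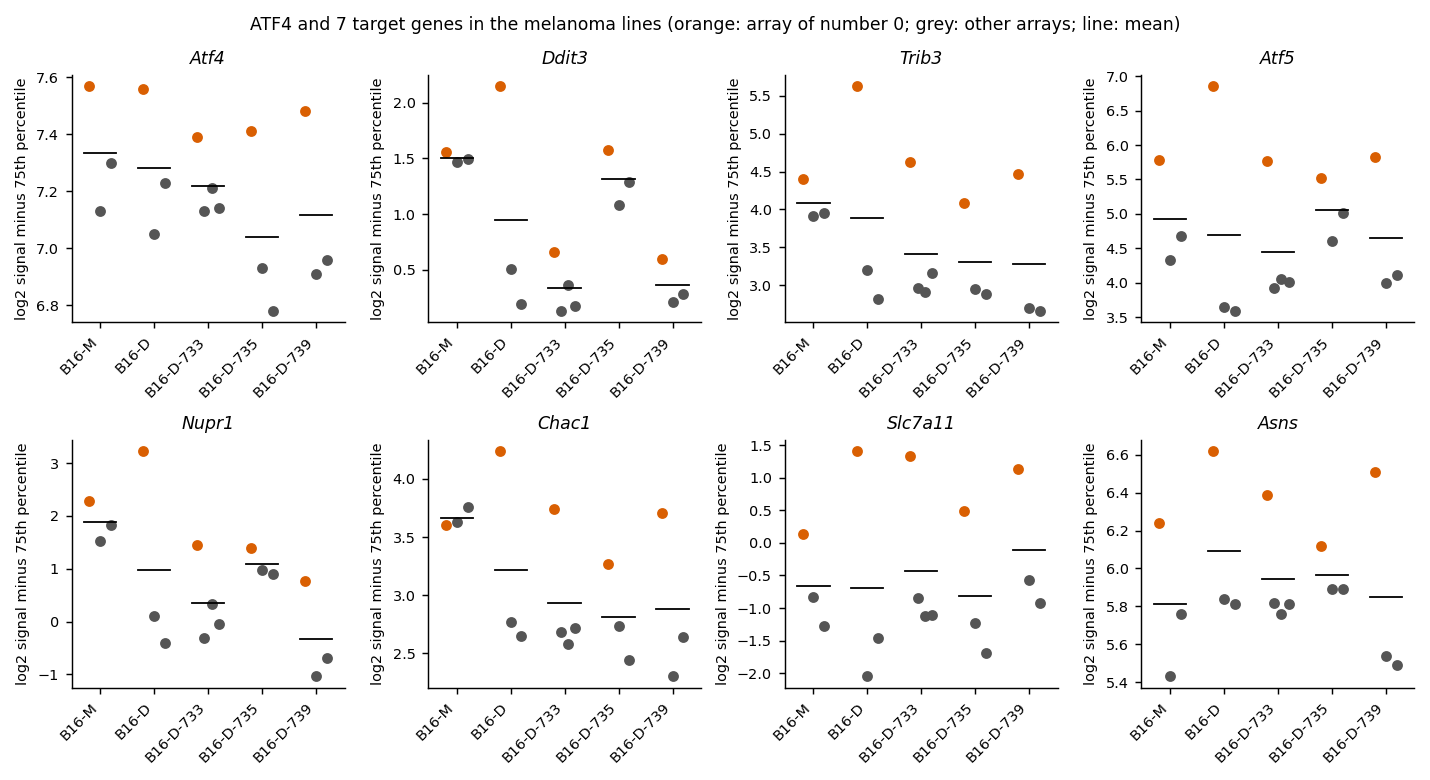
Level (y axis, log2 signal minus the 75th percentile) of Atf4 and 7 of its targets on the 16 melanoma arrays, by line (x axis), with number 0 in orange and line means as bars. Slc7a11 on number 0 lies between 0.14 and 1.41 and elsewhere between -2.05 and -0.57, so its orange points stand above its grey ones in every line. For Chac1 in B16-M the orange point is lowest (3.60 against 3.63 and 3.76).

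Against this spread, no member passed the threshold between B16-D and its parental line B16-M. Of 39 tested members 0 had a limma adjusted p under 0.05 and 3 an unadjusted p under 0.05, which 16.6% of all genes had. Over all 24310 genes, 2.00% were called higher and 1.60% lower. The members' median change was 0.07, with 25 of 39 above 0. It was -0.09 without B16-D replicate 0, with 14 of 39 above 0, and -0.02 without number 0, with 18 of 39. With the number 0 arrays left out, a choice made after seeing these values that leaves 2 arrays on each side, 7 members passed: Ddit3, Nupr1, Trib3, Chac1, Atf5 and Aldh1l2 lower, and Gdf15 higher. The shares over all genes were then 1.77% higher and 2.19% lower. Another count, 4 (Eif2ak3 and Slc1a4 lower, Slc1a5 and Slc3a2 higher), came from blocking on the replicate number, whose pairs did not hold between these lines. Without the block, the probes of Slc3a2 differed in sign (0.28 and -0.32).

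Members of several roles gained a call in this way, and the stress effectors among them are described first. Ddit3 (CHOP), the factor that turns prolonged stress toward cell death, was at 1.56, 1.47 and 1.49 in B16-M and at 2.15, 0.51 and 0.19 in B16-D. In B16-D-733 it was at 0.66, 0.13, 0.36 and 0.18, and in B16-D-739 at 0.60, 0.21 and 0.28. All arrays of these second-generation lines lay below all of B16-M, while replicate 0 of B16-D lay above it and the other arrays of B16-D below. The changes were -0.56, -1.17 and -1.14 with limma adjusted p of 0.519, 0.0763 and 0.141. B16-D-735 overlapped with B16-M, at 1.57, 1.29 and 1.08. Without the number 0 arrays Ddit3 passed in B16-D, B16-D-733 and B16-D-739, with changes of -1.13, -1.25 and -1.23.

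Trib3 was at 4.40, 3.92 and 3.95 in B16-M, at 5.63, 3.20 and 2.82 in B16-D and at 4.63, 2.96, 2.91 and 3.16 in B16-D-733. B16-D-735 read 4.08, 2.88 and 2.95, and B16-D-739 read 4.47, 2.70 and 2.66. On the arrays of other numbers each dormant line was below each B16-M value, while the number 0 arrays of the dormant lines lay within or above its range. Chac1, measured at 3.60, 3.63 and 3.76 in B16-M and at 4.24, 2.77 and 2.65 in B16-D, differed in B16-D-735, where number 0 also lay below every B16-M array. It was at 3.74, 2.68, 2.58 and 2.72 in B16-D-733, at 3.27, 2.44 and 2.73 in B16-D-735 and at 3.71, 2.30 and 2.64 in B16-D-739. With all arrays, the changes of Trib3 lay between -0.81 and -0.21 and those of Chac1 between -0.85 and -0.45, none past the threshold. Without number 0, both passed in 4 of 4 dormant lines, Trib3 from -1.26 to -0.93 and Chac1 from -1.22 to -0.98. Number 0 was left out after these values were seen, and the comparisons share the same B16-M arrays, so they are not separate tests. For B16-D and B16-D-733, date and line cannot then be told apart.

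Nupr1, a small stress-induced chromatin protein, was at 2.28, 1.53 and 1.82 in B16-M and at 0.76, -1.04 and -0.70 in B16-D-739. In B16-D-733 it read 1.45, -0.32, 0.33 and -0.04, and in B16-D-735 it read 1.39, 0.90 and 0.97. Every array of these lines lay below B16-M. Replicate 0 of B16-D broke the order at 3.23, above all others, while its companions read 0.10 and -0.41. The changes were -0.90, -1.52, -0.79 and -2.20 in B16-D, B16-D-733, B16-D-735 and B16-D-739, with limma adjusted p from 0.188 to 0.787. Without number 0, Nupr1 passed in 3 of 4 lines.

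Atf4 itself did not pass in any dormant line. It lay between 7.13 and 7.57 in B16-M and between 6.78 and 7.56 in the dormant lines, with changes from -0.29 to -0.05 and limma adjusted p from 0.59 to 0.921.

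**Figure D3:**
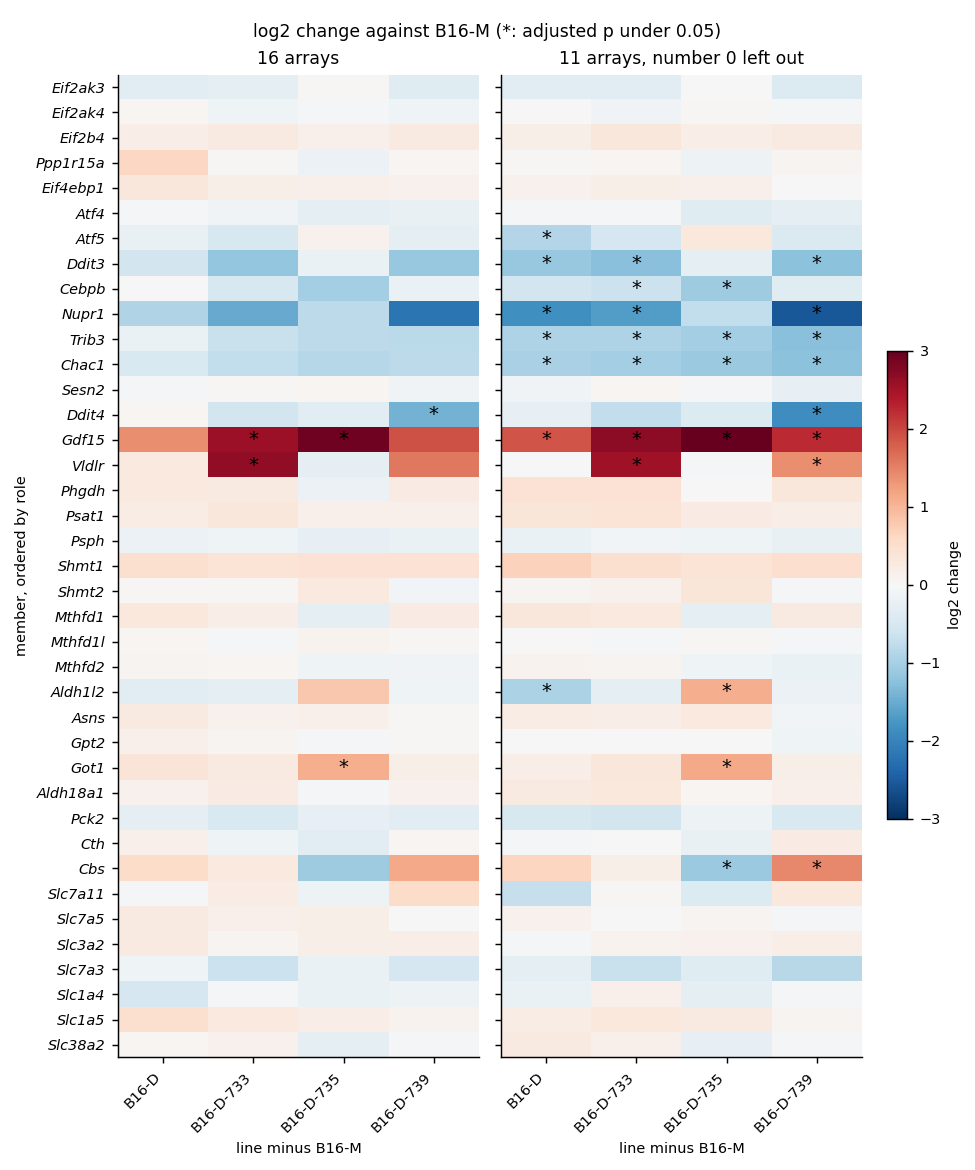
Log2 change against B16-M (colour scale from -3 to 3) of 39 members (y axis) in 4 dormant melanoma lines (x axis), from the 16 arrays on the left and from the 11 arrays without number 0 on the right, with stars for an adjusted p under 0.05. Stars stand on 5 cells at the left and on 29 at the right, where Trib3, Chac1 and Gdf15 carry one in all 4 lines.

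In B16-D-733 the lipoprotein receptor Vldlr and Gdf15 were higher than in B16-M. These 2 of 39 members passed, both higher, where 3.18% of all genes were called higher and 2.39% lower. Vldlr measured -3.62, -4.29 and -4.59 in B16-M and -0.33, -2.01, -1.92 and -1.75 in B16-D-733. The lowest array of the dormant line was above the highest of the parental line, and the log2 change was 2.66 (SE 0.52, limma adjusted p = 0.00805). B16-D-739 followed, with -1.68, -3.07 and -3.0 and a change of 1.58 (limma adjusted p = 0.175). B16-D, at -2.72, -4.28 and -4.60, and B16-D-735, at -4.34, -4.75 and -4.18, overlapped with B16-M. A second probe of Vldlr, above background on 1 array, gave a change of 0.92 for B16-D-733, and normexp background correction gave 1.43 for the first probe.

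Gdf15 was not above background on any B16-M array, at -5.10, -6.46 and -7.07. It measured -2.33, -4.04, -4.43 and -3.76 in B16-D-733 and -3.14, -3.34 and -3.38 in B16-D-735, all above background. B16-D-739 gave -3.85, -4.33 and -4.73, of which 2 of 3 were above background, and B16-D gave -4.67, -4.91 and -4.86, of which 1 of 3 was. No dormant array reached down to B16-M. Gdf15 passed the filter of 3 arrays above background only through the dormant lines. As bounds, Gdf15 was at least 2.4-fold higher in B16-D-733 (limma adjusted p = 0.00648), at least 3.07-fold in B16-D-735 (adjusted p = 0.00434) and at least 1.51-fold in B16-D-739 (adjusted p = 0.0653). In B16-D the bound was 1.06-fold (limma adjusted p = 0.179). With normexp background correction the log2 changes were 0.68 in B16-D-733 and 0.72 in B16-D-735, with limma adjusted p of 0.049 and 0.0552, and those sizes are below the bounds. Fitting only the 2 lines compared, a choice with fewer arrays for the spread, Gdf15 did not pass in B16-D-733 (limma adjusted p = 0.0828) or B16-D-735 (0.0511). The measured means were -6.21 in B16-M, -3.64 in B16-D-733, -3.29 in B16-D-735, -4.31 in B16-D-739 and -4.81 in B16-D.

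For B16-D-733 the replicate numbers paired the arrays with those of B16-M. The fit with the number as a block left out B16-D-733 replicate 3 and B16-D-735 replicate 2. Their titles give no number of their own after the line name. In that fit 3 members passed, Gdf15 and Vldlr higher and Ddit3 lower (log2 change -1.12, SE 0.26, limma adjusted p = 0.0408). Over all genes 4.0% were then called higher and 2.87% lower. With the same arrays and no block the calls were Gdf15 and Vldlr. Without number 0 the count was 7, with Cebpb, Chac1, Ddit3, Nupr1 and Trib3 lower, where 3.35% of all genes were called higher and 3.47% lower.

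In B16-D-735, Gdf15 and the cytosolic aspartate aminotransferase Got1 were higher than in B16-M, and these 2 of 39 members were the calls. Over all genes 3.07% were called higher and 1.97% lower. Got1 was at 4.66, 4.23 and 4.32 in B16-M and at 5.61, 5.41 and 5.42 in B16-D-735, with no overlap and a change of 1.08 (SE 0.21, limma adjusted p = 0.00934). The other dormant lines read 5.36, 4.46 and 4.51 in B16-D, from 4.60 to 4.82 in B16-D-733 and from 4.39 to 4.82 in B16-D-739. A second Got1 probe gave 1.23 for the same comparison. Leaving out B16-M replicate 1 raised the adjusted p of Got1 to 0.0507. Without number 0, 7 members passed, with Aldh1l2, Gdf15 and Got1 higher and Cbs, Cebpb, Chac1 and Trib3 lower, where 2.53% of all genes were called higher and 1.56% lower.

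In B16-D-739, 1 of 39 members passed, the mTORC1 inhibitor Ddit4 (REDD1), which was lower. Genes called over all were 2.15% higher and 1.55% lower. Ddit4 was at 2.26, 2.72 and 2.83 in B16-M and at 1.74, 0.83 and 0.99 in B16-D-739. It fell by 1.42 (SE 0.25, limma adjusted p = 0.00489), with differences of -1.84, -1.89 and -0.52 within the slides. The call was lost when only B16-D-739 and B16-M were fitted (limma adjusted p = 0.0939). B16-D, with 2.98, 2.80 and 2.24, overlapped with B16-M, while B16-D-733 read 2.03 to 2.13 on its 4 arrays and B16-D-735 2.12 to 2.54.

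The numbers paired B16-D-739 with B16-M as well, and the blocked fit, with the same arrays left out, called 6 members against 1 (Ddit4) for those arrays with no block. Gdf15 (1.90) and Vldlr (1.58) were higher, and Ddit3 (-1.14), Ddit4 (-1.42), Eif2ak3 (-0.37) and Nupr1 (-2.20) lower, with limma adjusted p from 0.00919 to 0.0457. In that fit 2.99% of all genes were called higher and 2.48% lower. Each number lay on the same slide in B16-D-739 and B16-M, so number and slide cannot be told apart in this comparison. With slide as a block 3 members passed, Cbs and Gdf15 higher and Ddit4 lower. Over 24310 genes, 842 were then called higher and 643 lower. Without number 0 the count was 8, with Cbs, Gdf15 and Vldlr higher and Chac1, Ddit3, Ddit4, Nupr1 and Trib3 lower, beside 2.03% of genes higher and 1.66% lower.

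**Figure D4:**
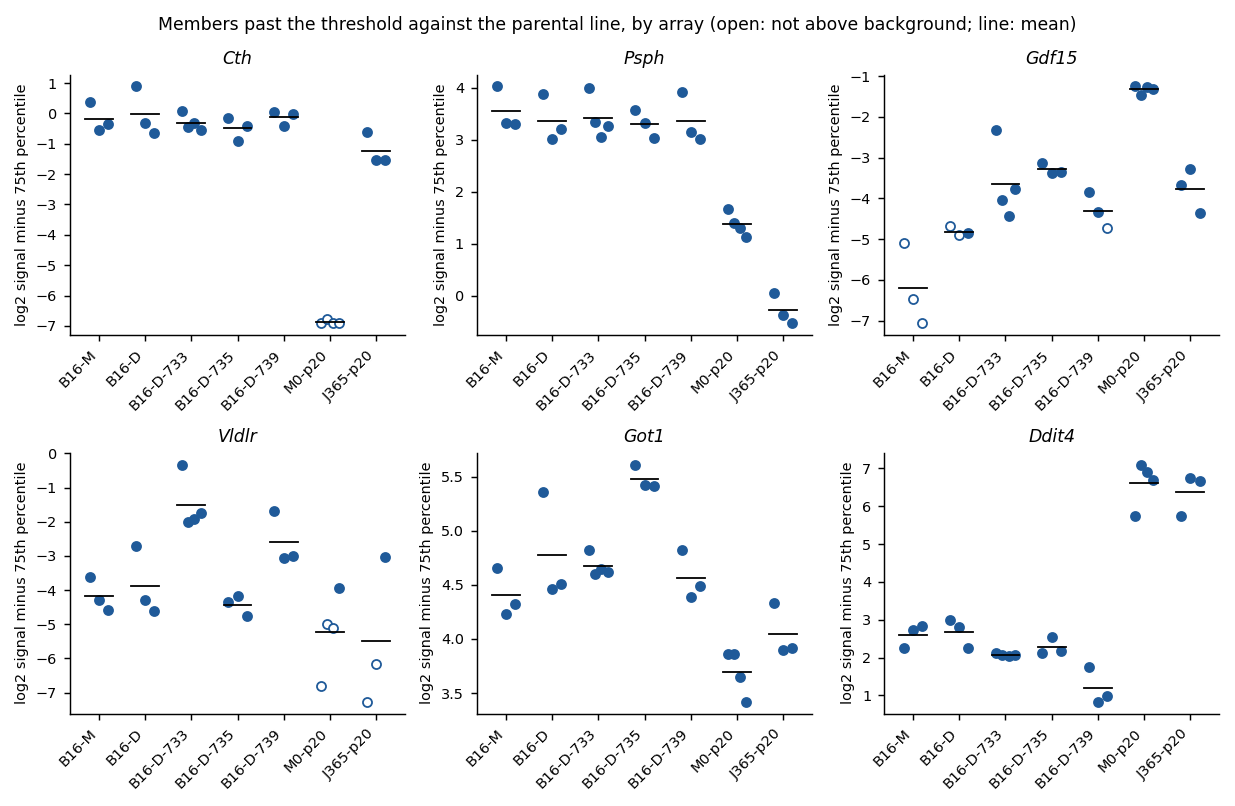
Level (y axis, log2 signal minus the 75th percentile) of the 6 members past the threshold against a parental line, on each array of the 7 lines (x axis), with open points not above background and bars at the means. Cth is open on the 4 M0-p20 arrays near -6.9 and filled on the J365-p20 arrays between -1.55 and -0.62.

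For 7 enzymes of serine, one-carbon, asparagine and cysteine metabolism, no melanoma line passed against B16-M. Phgdh read 6.5, 5.91 and 5.97 in B16-M, 6.53, 6.33 and 6.42 in B16-D, and 6.44, 6.34, 6.47 and 6.30 in B16-D-733. It read 5.98, 6.11 and 5.74 in B16-D-735 and 6.53, 6.17 and 6.41 in B16-D-739. All lines overlapped with B16-M, but B16-D, B16-D-733 and B16-D-739 did so only through number 0 of B16-M. Psat1 read 5.33, 4.82 and 4.95 in B16-M, 5.24, 5.20 and 5.32 in B16-D and 5.57, 5.41, 5.21 and 5.29 in B16-D-733. Its levels were 5.31, 5.17 and 5.10 in B16-D-735 and 5.43, 5.11 and 5.06 in B16-D-739. Every dormant line overlapped with B16-M, but only through number 0 of B16-M. On the arrays of other numbers, each dormant line lay above both B16-M values. Psph read 4.03, 3.33 and 3.30 in B16-M, 3.88, 3.02 and 3.21 in B16-D and 4.0, 3.35, 3.05 and 3.26 in B16-D-733. It read 3.58, 3.03 and 3.33 in B16-D-735 and 3.92, 3.16 and 3.01 in B16-D-739. All dormant lines overlapped with B16-M here as well. On the arrays of other numbers, B16-D and B16-D-739 lay below both B16-M values. Shmt2 read 3.99, 3.43 and 3.58 in B16-M, 3.90, 3.62 and 3.55 in B16-D and 3.84, 3.49, 3.85 and 3.60 in B16-D-733. It stood at 4.17, 4.0 and 3.72 in B16-D-735 and 3.79, 3.38 and 3.55 in B16-D-739. Values of B16-D-735 reached highest, and all lines overlapped, B16-D-735 with B16-M only through number 0 of B16-M. Mthfd2 read 3.54, 2.97 and 2.66 in B16-M, 3.62, 2.77 and 3.05 in B16-D and 3.73, 2.98, 2.74 and 2.97 in B16-D-733. Its levels were 3.42, 2.52 and 2.88 in B16-D-735 and 3.62, 2.74 and 2.49 in B16-D-739. The number 0 array was highest in each line. Asns read 6.24, 5.43 and 5.76 in B16-M, 6.62, 5.84 and 5.81 in B16-D and 6.39, 5.82, 5.76 and 5.81 in B16-D-733. It read 6.12, 5.89 and 5.89 in B16-D-735 and 6.51, 5.54 and 5.49 in B16-D-739. Here too the number 0 array was highest in each line, and the lines overlapped. B16-D and B16-D-735 overlapped with B16-M only through number 0 of B16-M. Cth read 0.38, -0.55 and -0.34 in B16-M, 0.89, -0.31 and -0.63 in B16-D and 0.09, -0.44, -0.32 and -0.56 in B16-D-733. It lay at -0.16, -0.42 and -0.91 in B16-D-735 and 0.05, -0.40 and -0.01 in B16-D-739. It did not separate any dormant line from B16-M. None of the 7 enzymes passed against B16-M with or without the number 0 arrays, although a missed threshold does not show equal levels. Aldh1l2 stood apart from these enzymes, with calls in B16-D (lower) and B16-D-735 (higher) once number 0 was left out. For cytosolic Shmt1, the arrays of B16-D-733 (-1.16 to -0.48), B16-D-735 (-1.01 to -0.64) and B16-D-739 (-1.0 to -0.63) all lay above B16-M (-1.33 to -1.17), with changes of 0.41 to 0.44 and limma adjusted p from 0.314 to 0.388.

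Among the dormant melanoma lines, each second-generation line was fitted against B16-D, and few members passed with all arrays. Between B16-D-733 and B16-D 0 of 39 members passed in limma, where 0.411% of all genes were called higher and 0.0699% lower. An unadjusted limma p under 0.05 was found for 4 of 39 members and 4.4% of all genes. Between B16-D-735 and B16-D, 2 members passed, both lower, while 4.07% of all genes were called higher and 3.93% lower. Cbs measured -1.23, -1.37 and -1.49 in B16-D and -2.50, -3.13 and -3.25 in B16-D-735, and it fell by 1.60 (SE 0.31, limma adjusted p = 0.00672). Mthfd1, the cytosolic trifunctional folate enzyme, measured 5.67, 5.45 and 5.45 in B16-D and 5.15, 4.92 and 4.68 in B16-D-735. It fell by 0.61 (SE 0.14, limma adjusted p = 0.0181). That call was lost in limma with normexp background correction (adjusted p = 0.0701), no filter (0.0526), the mean of its probes (0.0739), B16-D replicate 2 included (0.0578), only the 2 lines fitted (0.235) or B16-D-735 replicate 2 left out (0.0869). Its second probe gave -0.30, and for B16-D against B16-M the probes of Mthfd1 differed in sign (0.32 and -0.39). Without B16-D replicate 0 the count for B16-D-735 against B16-D rose to 6, where 1286 of 24293 genes were called higher and 907 lower. Without number 0 it was 8, where 1014 of 23792 genes were called higher and 671 lower.

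Cbs also differed in level among the second-generation lines, which were not fitted against each other. It lay at -1.0, -0.77 and -0.55 in B16-D-739 and at -1.55, -2.11 and -2.06 in B16-M, with B16-D-735 below both and B16-D-733 spanning -2.01 to -0.74. The changes against B16-M were 1.14 in B16-D-739 and -1.06 in B16-D-735, with limma adjusted p of 0.0671 and 0.0758. Between B16-D-739 and B16-D, Ddit4 was the only member called, lower by a log2 change of -1.49 (SE 0.25, limma adjusted p = 0.0208), with 0.230% of all genes called higher and 0.0782% lower. That call was lost when B16-D replicate 0 or 1 or B16-D-739 replicate 1 or 2 was left out, with adjusted p from 0.0718 to 0.125 by limma, with slide as a block (0.0644) and with only the 2 lines fitted (0.713).

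Among the kinases and brakes at the head of the pathway, Ppp1r15a spanned 1.40 to 3.56 in melanoma and 2.75 to 4.26 in leukemia. Eif2ak3 (PERK) spanned 0.73 to 1.5 and -0.83 to 0.03, and its change in B16-D-739 was the one of -0.37 called in the blocked fit. Eif2ak4 (GCN2), the sensor of uncharged tRNA, spanned 1.22 to 1.74 in melanoma and 1.34 to 1.59 in leukemia, and Eif2b4, a subunit of the exchange factor that eIF2 phosphorylation blocks, spanned 3.11 to 3.73 and 3.17 to 3.76. Eif4ebp1, which holds back cap-dependent translation, spanned 4.83 to 6.0 and 5.26 to 6.46, with its highest melanoma value on B16-D replicate 0. The stress effector Sesn2, a leucine sensor upstream of mTORC1, spanned 0.97 to 2.30 and 3.18 to 3.61. With all arrays and no block, none of these 6 members passed in any comparison with a parental line. Nor did the 4 enzymes that follow. Mthfd1l, the mitochondrial formate-releasing synthetase, spanned 1.98 to 2.45 in melanoma and 1.61 to 2.43 in leukemia. Gpt2, the mitochondrial alanine aminotransferase, spanned -0.54 to 0.78 and 1.65 to 2.44, while Aldh18a1, the first enzyme of proline synthesis, spanned 1.73 to 2.76 and 2.98 to 3.56. Pck2, the mitochondrial phosphoenolpyruvate carboxykinase, spanned 1.39 to 2.62 and 3.30 to 4.28. Each of these values is a level of 1 probe, so levels of different genes are not set against each other.

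The leukemia and melanoma changes were set against each other in a fit of all 23 arrays. For 2 of 36 members, Cth and Gdf15, the change from parental to dormant line differed between J365-p20 and B16-D, 1 higher and 1 lower in leukemia relative to melanoma. Over 20817 genes tested in both models, 0.706% were called higher and 0.658% lower. The difference was 5.50 for Cth (SE 0.46, limma adjusted p = 5.24e-07) and -3.85 for Gdf15 (SE 0.63, limma adjusted p = 0.00168). Gdf15 thus fell in the dormant leukemia line, while its B16-D arrays lay above those of B16-M without passing the test of that comparison. Psph, lower in J365-p20, differed by -1.48 with an adjusted p of 0.0943. The size for Cth rests on M0-p20 arrays at background and that for Gdf15 on B16-M arrays at background, so neither is a fold change. The adjusted p carry the same limit. Cth entered this fit only through the arrays of J365-p20, the group where it was high. Gdf15 was above background on 0 of 3 B16-M and 1 of 3 B16-D arrays. With every array required above background neither was tested, and 0 members were called.

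Leukemia calls changed when number 0 was left out of both lines. In limma Psph passed (log2 change -1.72, adjusted p = 0.0278) and Gdf15 did not (-2.48, adjusted p = 0.0737), while Cth was above background on too few arrays for a test. In that fit 0.215% of all genes were called higher and 0.581% lower.

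The transporters held 1 member that followed the slide and not the line. Slc1a4, a carrier of serine, alanine and cysteine, lay between 1.21 and 2.02 on the 8 arrays of slide 1, against 1.91 to 3.13 on slide 2 and 2.25 to 3.16 on slide 3. In all 7 lines the arrays of slide 1 were below those of the other slides. Its changes against B16-M lay between -0.51 and -0.05 with all arrays, and within slide 1 between -0.48 and -0.06. No transporter passed the threshold between a dormant line and its parental line with all arrays. Slc3a2, the heavy chain shared by several amino acid exchangers, spanned 4.29 to 5.66 in melanoma and 4.86 to 5.63 in leukemia, and its light chain Slc7a5 spanned -1.99 to -1.30 and -2.35 to -2.11. The glutamine carriers Slc1a5 and Slc38a2 spanned 1.25 to 2.81 and 3.22 to 3.98 in melanoma. Slc7a3, a carrier of cationic amino acids, was above background on 12 of 16 melanoma and 3 of 7 leukemia arrays.

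**Figure D5:**
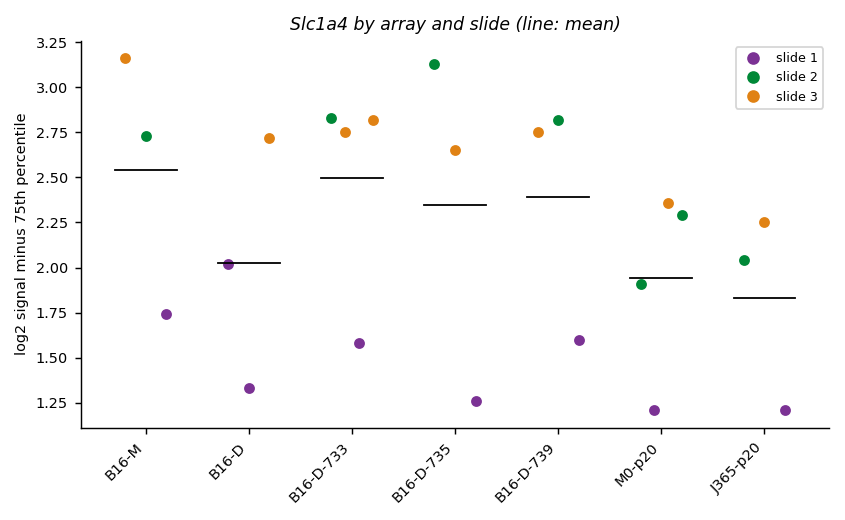
Level (y axis, log2 signal minus the 75th percentile) of Slc1a4 on the 23 arrays by line (x axis), coloured by slide, with bars at the line means. In all 7 lines the arrays of slide 1, between 1.21 and 2.02, lie lowest.

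Few other genes of the same pathways passed the test. Among 15 further ATF4 targets, 0 of 14 tested passed with limma in leukemia (1 at an unadjusted p under 0.05) and 0 of 13 in each dormant melanoma line against B16-M (0 to 2 unadjusted, where 14.0% to 17.5% of all genes had such a p). Among further genes of the folate, glycine and methionine cycles, 0 of 15 passed with limma in leukemia. There 5 of 15 had an unadjusted p under 0.05, against 6.9% of all genes in leukemia. In melanoma 1 of 16 passed, Aldh1l1, which was lower in B16-D-733 (log2 change -1.16, SE 0.28, limma adjusted p = 0.0297), with 3 to 6 unadjusted. Among 11 further eIF2 pathway genes, the heme-regulated kinase Eif2ak1 was higher in B16-D-735 (0.41, SE 0.11, limma adjusted p = 0.0485), with 1 to 5 unadjusted. In the IRE1 and ATF6 arms of the unfolded protein response, 19 genes were tested, and the chaperone Hsp90b1 was lower in B16-D (-0.47) and the co-chaperone Dnajb9 in B16-D-739 (-0.76), with limma adjusted p of 0.0362 and 0.0336. Of these 19, 4 to 8 had an unadjusted p under 0.05 in the dormant lines, with median changes from -0.26 to -0.14. Between B16-D-735 and B16-D, Mthfd2l was higher (0.91), while Ahcy (-0.67) and Slc19a1 (-0.53) of the folate and methionine cycles were lower, as were the ATF4 target Ndrg1 (-0.83) and the eIF2B subunit Eif2b5 (-0.41). Mthfd2l was also higher in B16-D-733 than in B16-D (0.80).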

How the data were processed

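Total RNA of 24 cultured samples was hybridised to Agilent 8x60k mouse arrays of 1 colour. Per the file headers, the deposited intensities are processed signals of Agilent Feature Extraction 10.7.3.1, which subtracts background, before any normalization between arrays. The authors named GeneSpring for their own analysis, and its normalization is not given in the sources used here.

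From these intensities, log2 signals were taken and the 75th percentile of each array subtracted. Control spots and outlier spots were left out, spots of a probe averaged, and probes named through RefSeq transcripts (assembly GRCm38.p6). Of 56605 probes, 32994 were named, and each gene was represented by its probe of highest mean. Genes well above background on at least 3 arrays of a fit were tested with limma 3.58.1 in R 4.3.3, with Benjamini-Hochberg adjustment over all genes and a threshold of 0.05. The 7 leukemia arrays, the 16 melanoma arrays and all 23 were fitted separately. The melanoma comparisons with B16-M share its arrays. The script was tested on simulated data.

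Genes named in the text are the members past the threshold, with members described by role. Members and lists were chosen with earlier results of these data known. 1 gene of the further lists that passed is not reported here. Alternatives covered normalization, background correction, filters, probe choice, slide, replicate number and each array left out. Leaving out the number 0 arrays was added after seeing the data. So was leaving out 2 arrays whose titles give no number of their own after the line name (B16-D-733 replicate 3 and B16-D-735 replicate 2). The fit with the replicate number as a block leaves out the same 2 arrays. Number 0, and the 2 of B16-D-735 replicate 2, stand only in the leading code of the title. Same-numbered arrays deviated together, with every correlation above 0.1, for B16-D-733 with B16-M (0.35 to 0.82) and B16-D-739 with B16-M (0.58 to 0.83), and not for the other comparisons. For B16-D-739 and B16-M the arrays of each number also shared a slide. The number of arrays limits the precision.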

Additional observations from a re-analysis of the deposited data

Results flagged for a closer look

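In the groups of 4 arrays, B16-D-733 and M0-p20, the gap between the highest or lowest array and its nearest neighbour was compared with the whole range. Of 71 gene and group pairs, 11 exceeded the 95% critical value, where chance gives about 1 in 20 for independent pairs. Members measured on the same arrays are not independent, so the count is not a test. The number 0 array stood alone above the other B16-D-733 arrays for Atf5 (ratio 0.929), Asns (0.896), Slc7a11 (0.888), Chac1 (0.885), Trib3 (0.855), Gpt2 (0.855) and Vldlr (0.846). In the same line Slc1a4 was alone at the bottom on replicate 2 (0.937), the array of slide 1. In M0-p20 the number 0 array was alone at the top for Mthfd2 (0.923) and at the bottom for Sesn2 (0.867) and Ppp1r15a (0.838).

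The change from parental to dormant line differed between leukemia and melanoma for Cth by 5.5 and for Gdf15 by -3.85 on the log2 scale, in the limma test of that difference. Both rest on arrays at background, with the limits given above. Stc2 measured -1.64 on B16-D replicate 2, the array left out, against -7.51 to -6.12 on the other 23 arrays. On that array all 40 measured members were above background.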

How the results depend on the processing

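No direction of a called member reversed under any alternative. Counts of members called (adjusted p under 0.05, limma) moved by over 1.5 times as follows, and the cause was not tested unless stated. With the replicate number as a block, the count was 1 for J365-p20 against M0-p20 and 4 for B16-D, 3 for B16-D-733, 2 for B16-D-735 and 6 for B16-D-739 against B16-M. Blocked counts against B16-D were 1 for B16-D-733, 3 for B16-D-735 and 4 for B16-D-739, and 3 for the difference between models. That fit leaves out 2 arrays without a number of their own after the line name. With these left out and no block the counts were 1 for B16-D-735 and 0 for B16-D-739 against B16-D, and as with all arrays otherwise. Without the number 0 arrays the count was 1 in leukemia, 7, 7, 7 and 8 for B16-D, B16-D-733, B16-D-735 and B16-D-739 against B16-M, 1, 8 and 1 for the last 3 against B16-D, and 7 for the difference between models. Requiring every array above background left 1 in B16-D-733, 1 in B16-D-735 and 0 for the difference between models, since Cth and Gdf15 are then not tested. Normexp background correction gave 1 for B16-D-735 against B16-M and 1 against B16-D, where quantile normalization gave 4, no filter 1 and the mean of probes 1. Slide as a block gave 3 for B16-D-739 against B16-M and 0 against B16-D. Fitting only the lines compared gave 1 for B16-D-735 against B16-M and 0 for B16-D-739 against B16-D. There B16-D-733 kept a count of 2 but with Ddit3 in place of Gdf15, B16-D-739 against B16-M kept 1 but with Ddit3 in place of Ddit4, and B16-D-735 against B16-D kept 2 but with Gdf15 in place of Mthfd1.

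The median change of the members moved to 0.09 within slide 1 in leukemia. Within slide 3 it was -0.34 for B16-D, -0.36 for B16-D-733 and -0.37 for B16-D-735 against B16-M, and 0.49 for B16-D-739 against B16-D. Within slide 1 it was 0.36 for B16-D against B16-M, and -0.37 for B16-D-733, -0.34 for B16-D-735 and -0.41 for B16-D-739 against B16-D. Within slide 2 it was 0.53 for B16-D-733 and 0.28 for B16-D-735 against B16-M.

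Leaving out each array in turn gave counts of 1 to 3 in leukemia, 0 to 1 for B16-D, 2 for B16-D-733, 1 to 2 for B16-D-735 and 1 to 2 for B16-D-739 against B16-M, 0 to 1, 1 to 6 and 0 to 1 for the last 3 lines against B16-D, and 1 to 4 for the difference between models. The medians ranged from 0.23 to 0.39 in leukemia, from -0.09 to 0.29, -0.09 to 0.14, -0.20 to 0.11 and -0.15 to 0.14 against B16-M, from -0.27 to 0.14, -0.25 to 0.12 and -0.26 to 0.10 against B16-D, and from -0.02 to 0.30 between models. The leukemia count of 1 came without J365-p20 replicate 1 or 3, the counts of 6 and 4, and of 1 for B16-D against B16-M and for B16-D-733 against B16-D, without B16-D replicate 0. B16-M replicate 1 decided the count of 1 for B16-D-735, B16-M replicate 0 the count of 2 for B16-D-739, and B16-D-735 replicate 2 the count of 1 for that line against B16-D. Without B16-D replicate 0 or 1, or B16-D-739 replicate 1 or 2, the count for B16-D-739 against B16-D was 0, and without any J365-p20 array that for the difference between models was 1. Transcripts not above background carry only a bound, and 2 to 4 arrays a line limit what could be called.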
